A study of Homo sapiens with 6 samples.

Results

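Divergent lncRNAs are long noncoding RNAs that start head to head with another gene and run away from it on the opposite strand. The 75 described here were all autosomal lncRNA genes whose symbol ends in -DT (divergent transcript) and whose summed count averaged 50 or more over the 6 libraries, out of 580 autosomal -DT genes and 18672 lncRNA genes in the table. Each was set beside its neighbour, the protein-coding gene in the stem of its name. The mean count over both groups chose them, so their levels are given as a description, and the choice did not use the direction of any difference. It is not free of the difference either. Of the 75, 54 averaged 50 counts or more in both groups, 14 in non-BCSC only and 7 in BCSC only.

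The libraries came from MDA-MB-231, an established human triple-negative breast cancer line, made resistant to paclitaxel (PTX), a drug that stabilises microtubules. BCSC, the breast cancer stem cells (3 libraries), were sorted for aldehyde dehydrogenase activity (ALDH+), and non-BCSC (3 libraries) were the ALDH- cells. The sample titles name the non-BCSC libraries without the drug, while their other labels give the resistant line and the stem cell type for all 6. Total RNA was primed with random oligonucleotides into a strand-marked library, and nothing in the labels says whether replicates were separate cultures or separate sorts, so the p-values measure the spread between these libraries, which may be technical. All libraries are from 1 cell line. In such bulk libraries a smaller share of expressing cells and less RNA per cell cannot be told apart.

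RNA polymerase II starts transcription in both directions at many CpG-rich promoters. The transcript on the coding side is protected by U1 snRNP binding and is spliced, whereas the upstream transcript is often ended early at a polyadenylation signal and degraded by the nuclear exosome. The -DT genes are those upstream products that are long, spliced or stable enough to have been annotated as lncRNAs.

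Library totals ran from 9898588 to 21215352 counts, with every BCSC library deeper than every non-BCSC library. The line's own markers VIM, CD44, EGFR, CAV1 and FN1 were counted in every library at 100.5 CPM (counts scaled to library size after TMM normalisation) or more. Of the 4 markers that should be low, only PGR passed the test between groups, and EPCAM was too low to be tested. PGR was at 0.542, 0.326 and 1.39 CPM in BCSC and 7.26, 15.5 and 19.1 CPM in non-BCSC (adjusted p = 0.0022 by edgeR). ESR1 (3.65 to 5.56 against 6.98 to 16.0 CPM) and CDH1 (2.6 to 5.09 against 6.02 to 9.3 CPM) were also higher in non-BCSC without overlap but did not pass the test, and EPCAM was at 1.82 CPM or less. ALDH1A3, an aldehyde dehydrogenase gene, was at 25.6, 30.5 and 33.4 CPM in BCSC and 23.5, 17.0 and 12.1 CPM in non-BCSC. It did not pass the test (adjusted p = 0.0577 by edgeR). ALDH1A1 ran the other way from the sort, at 0, 0.326 and 0.363 CPM in BCSC and 3.14, 2.47 and 3.07 CPM in non-BCSC (adjusted p = 0.0446 by edgeR). Which gene gave the sorted activity was not tested. Genes that this line should not use were higher in non-BCSC. PTPRC, the leukocyte marker CD45, was at 0.197, 0.391 and 1.15 CPM in BCSC and 13.2, 22.6 and 20.7 CPM in non-BCSC, while PECAM1 was not analysed here. The 391 olfactory receptor genes summed to 37.1, 53.1 and 146 CPM in BCSC and 521, 681 and 1183 CPM in non-BCSC. Their mean count per kilobase served as a measure of background in each library, and results with this background removed are given below. What part the signal of PTPRC and PGR has in them was not tested.

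All 75 lncRNAs lay on the strand opposite their neighbour. In GRCh37 annotation the paired starts were a median of 69 bases apart, 71 of 75 within 300 bases and 73 within 1000. In 12 pairs the starts overlapped, as at CTBP1-DT, whose start lay 11 bases inside its neighbour. The farthest were EPM2A-DT, 63386 bases from EPM2A, and SMC2-DT, 1187 bases from SMC2. In 44 of the 75 some exon bases were shared with a gene on the opposite strand (in 26 with the neighbour), and in 9 this was over 10% of the lncRNA's exon bases. The largest shares were 60.6% in FAM151B-DT, 56.4% in UBL7-DT and 47.5% in WDR5B-DT. Whether counting used the strand is not given in the sources used here, so reads of such overlaps cannot be assigned to one gene.

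The stretches between paired starts are short, and 9 of them are printed in full because they belong to pairs whose lncRNA changed or, for NIPBL and UBA6, to abundant pairs that did not. They were read from GRCh37 on the neighbour's strand, 5′ to 3′, so that the neighbour begins at the right end and the lncRNA begins at the left end on the other strand. The pairs were picked after their values were seen. Capitals mark, on either strand, the TATA box, the CCAAT box, the GC box, the ETS site and the cAMP response element, whose letters are given with their frequencies.
ZRANB2 pair, chr1:71546972-71547007, minus strand: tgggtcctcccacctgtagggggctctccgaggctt
FBXO38 pair, chr5:147763470-147763498, plus strand: cagccccggatgacaacactccggaaata
PCDH10 pair, chr4:134070302-134070449, plus strand: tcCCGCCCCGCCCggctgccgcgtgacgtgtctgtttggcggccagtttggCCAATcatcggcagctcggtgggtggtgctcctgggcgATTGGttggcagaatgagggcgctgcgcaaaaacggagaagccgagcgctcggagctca
FAM174A pair, chr5:99870966-99871078, plus strand: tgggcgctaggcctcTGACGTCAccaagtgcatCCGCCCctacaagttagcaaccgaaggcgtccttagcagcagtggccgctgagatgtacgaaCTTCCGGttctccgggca
MAD2L1 pair, chr4:120988013-120988059, minus strand: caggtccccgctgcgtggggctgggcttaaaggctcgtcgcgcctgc
COPB2 pair, chr3:139108578-139108603, minus strand: cgttgcctaggaaactgGGGCGGggc
BTG1 pair, chr12:92539622-92539859, minus strand: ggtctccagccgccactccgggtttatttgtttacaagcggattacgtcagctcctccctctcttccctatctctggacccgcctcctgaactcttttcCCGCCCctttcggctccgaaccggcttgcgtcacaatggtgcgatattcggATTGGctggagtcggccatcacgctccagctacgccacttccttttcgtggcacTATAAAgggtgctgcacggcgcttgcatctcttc
NIPBL pair, chr5:36876802-36876871, plus strand: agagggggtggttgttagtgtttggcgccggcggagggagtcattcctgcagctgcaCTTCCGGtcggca
UBA6 pair, chr4:68566873-68566927, minus strand: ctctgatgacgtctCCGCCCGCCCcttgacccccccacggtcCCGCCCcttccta

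The 73 pairs with starts within 1000 bases were also read as 300-base windows centred between the starts. Their median GC content was 66.3%, against 63.0% at 19047 protein-coding starts, and their median CpG ratio (observed over expected) was 0.888 against 0.741. The GC box GGGCGG, the binding sequence of SP1, was present in 55 of the 73 windows (75.3%) and in 54.6% of the coding windows. The ETS site CCGGAAG was present in 26% against 12.2%, and the palindromic NRF1 consensus, with any base at its centre, in 20.5% against 6.97%. The CCAAT box, named by its letters, was present in 31.5% and 33.4%. The TATA box TATAAA was present in 2 windows (2.74%) against 9.20%, and CACGTG, the E-box, also in 2, against 7.71%. The cAMP response element TGACGTCA was in 1 window (1.37%) against 2.19%. Both strands were searched, GC boxes can overlap each other, and a match is a description of the letters only. Over the first 1000 bases from each start, AATAAA, the core polyadenylation signal, occurred in 24 lncRNA sides and 13 neighbour sides, and GGTAAG, a 5′ splice site sequence that U1 recognises, in 22 and 15.

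**Figure D1:**
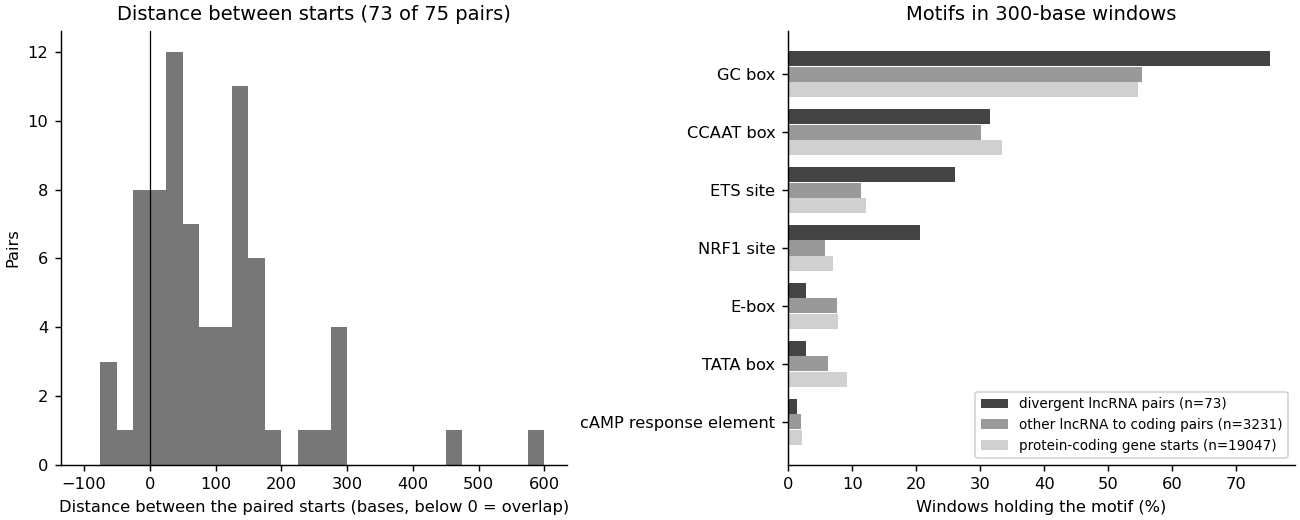
Left, histogram of the distance in bases between the paired starts (25-base bins, 73 of 75 pairs, negative values are overlaps). Right, the percentage of 300-base windows that hold each motif at the 73 divergent lncRNA pairs, at 3231 other lncRNA to coding pairs and at 19047 protein-coding starts. The GC box stands at 75.3%, 55.3% and 54.6% in the 3 sets and the TATA box at 2.74%, 6.16% and 9.20%.

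The counts were concentrated in a few of these lncRNAs, with 45.9% of the summed mean count in the top 5. TMEM161B-DT took 23.0% to 26.4% of all counts of the 75 in each library. A mean over 500 counts was reached by 5 of the 75, 42 had a mean under 100, and the median was 95.0. Together they took 0.0821%, 0.0849% and 0.0954% of the counts of the BCSC libraries and 0.107%, 0.121% and 0.153% of those of the non-BCSC libraries, with no overlap between groups. The neighbours took 1.17% to 1.30% in BCSC and 1.17% to 1.23% in non-BCSC.

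Compared per transcript length (TPM, counts per kilobase scaled to a fixed total), the median lncRNA stood at 14.2% of its neighbour's level in BCSC and 20.5% in non-BCSC. In 9 pairs the lncRNA exceeded its neighbour by the mean of the per-library ratios. Not all of these did so in every library. MAP3K9-DT, for example, stood at 88.3%, 60.8% and 47.5% of MAP3K9 in the BCSC libraries. TMEM161B-DT was at 99.1 ± 18.1 TPM (SD, n = 3) in BCSC and 142 ± 16.8 TPM in non-BCSC, against 70.1 ± 12.1 and 71.3 ± 5.0 TPM for TMEM161B. RAB30-DT was at 52.2 ± 3.51 and 65.5 ± 7.05 TPM, against 16.0 ± 2.45 and 18.4 ± 2.64 TPM for RAB30, a small GTPase of the Golgi. The other seven were PKD2L2-DT, ANKRD42-DT, MAP3K9-DT, FAM151B-DT, PCDH10-DT, ZNF132-DT and WDR5B-DT. At the other end, CD44-DT stood at 4.93 ± 1.82 TPM in BCSC beside CD44, the hyaluronan receptor used as a stem cell marker, at 2367 ± 242 TPM.

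**Figure D2:**
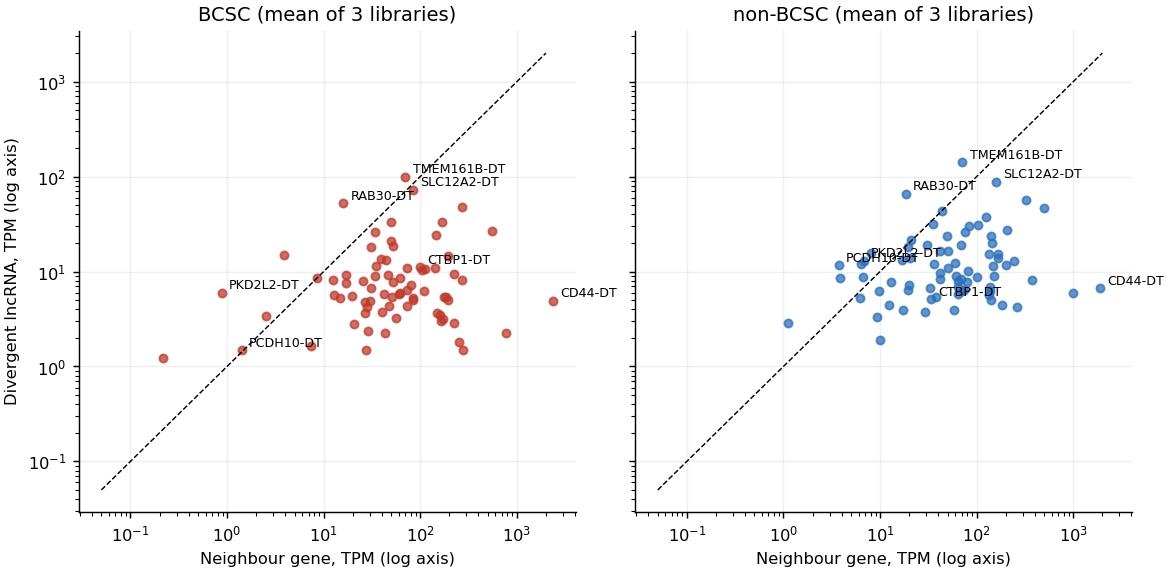
Mean level per transcript length (TPM, log axes, 3 libraries a group) of each divergent lncRNA against its neighbour, in BCSC (left) and non-BCSC (right), with the line of equal level dashed. Most points lie under the line, while TMEM161B-DT and RAB30-DT lie above it in both groups and CD44-DT lies far below.

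The 6 most abundant differed little between BCSC and non-BCSC. TMEM161B-DT (ENSG00000247828) was at 206, 203 and 251 CPM in BCSC and 285, 307 and 337 CPM in non-BCSC. The groups did not overlap, and the log2 fold change of -0.50 ± 0.12 (SE) had an adjusted p of 0.0135 by edgeR's quasi-likelihood test, short of the 2-fold minimum required here. Offsets for GC content and length, fitted on all genes past the filter, raised the median gene and lowered some genes, as described further on. With them the TMEM161B-DT estimate turned to 0.90 (adjusted p = 0.0081 by edgeR). With the offsets fitted on counted genes only it was -0.12. A single isoform, TMEM161B-DT-257, of 15798 bases in 6 exons, carried 58.4% to 66.1% of it in every library.

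NIPBL-DT, beside the gene of the cohesin loader, was at 41.1, 48.0 and 53.2 CPM in BCSC and 39.5, 50.1 and 44.5 CPM in non-BCSC. These ranges overlapped, with a log2 fold change of 0.09 ± 0.17. The unspliced transcript NIPBL-DT-203 held 90.5% to 97.4% of its counts. SLC12A2-DT, beside the sodium-potassium-chloride cotransporter, was at 67.3, 68.6 and 86.7 CPM in BCSC and 90.1, 90.2 and 86.9 CPM in non-BCSC. Its log2 fold change was -0.26 ± 0.14 (adjusted p = 0.169 by edgeR), with groups just apart, while SLC12A2 itself was at 176, 190 and 226 against 320, 346 and 384 CPM (log2 fold change -0.83, adjusted p = 0.0020). GARS1-DT, beside glycyl-tRNA synthetase, was at 46.5, 49.1 and 56.1 against 67.5, 58.5 and 80.9 CPM. UBA6-DT, beside a ubiquitin-activating enzyme, was at 34.5, 31.9 and 31.5 against 27.7, 40.7 and 54.9 CPM, and RAB30-DT at 24.1, 28.1 and 27.4 against 26.8, 30.4 and 34.0 CPM. Of these last 3, only GARS1-DT had groups that did not overlap, and none passed the test, with log2 fold changes of -0.45, -0.33 and -0.20. The same offsets turned SLC12A2-DT (0.61), GARS1-DT (0.26), UBA6-DT (0.81), RAB30-DT (1.05) and SLC12A2 (0.52), and fitted on counted genes only they left all of these negative, so the direction of the abundant members depends on this choice.

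The question the groups pose is which of these RNAs differ between the stem-like and the other cells of the resistant line. All 75 passed the filter on low counts. By edgeR, with calls at an adjusted p under 0.05 and a fold over 2, 1 was higher in BCSC (1.33%) and 11 were lower (14.7%). Of all 20442 genes tested, 8.85% were called higher and 11.3% lower. The median log2 fold change was -0.50 over the 75, -0.05 over all genes tested and 0.22 over genes averaging 50 counts or more. The estimate was negative in 59 and positive in 16. The 3 BCSC values lay below all 3 non-BCSC values in 29 of the 75 (38.7%, against 27.9% of all genes tested) and above them in 5 (6.67%, against 24.2%). Of the 11 lower, 8 averaged under 50 counts in BCSC and met the rule through their non-BCSC counts. The 54 that averaged 50 counts or more in both groups held 3 lower calls (FBXO38-DT, COPB2-DT and SEPTIN7-DT), 1 higher call and a median of -0.39.

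CTBP1-DT (ENSG00000196810, chr4:1242665-1282644) was the single one called higher. It was at 34.4, 29.7 and 22.7 CPM in BCSC and 12.7, 17.0 and 10.3 CPM in non-BCSC, with no overlap. The log2 fold change was 1.12 ± 0.27 (adjusted p = 0.0146 by edgeR). CTBP1, a transcriptional corepressor, rose too, from 30.0, 32.1 and 38.5 to 110, 82.8 and 87.7 CPM (log2 fold change 1.48, adjusted p = 0.0006). CTBP1-DT-206, an unspliced transcript of 7575 bases, carried 91.6% to 98.1% of the lncRNA, and 6.37% of the lncRNA's exon bases overlapped CTBP1. The call on CTBP1-DT was lost without BCSC replicate 1 (adjusted p = 0.0631), without BCSC replicate 2 (0.0550) and without non-BCSC replicate 3 (log2 fold change 0.98, under the minimum). It was also lost with offsets for GC content and length (log2 fold change 0.67), under which CTBP1 was at -0.08.

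Of the 11 lower calls, 5 held without each of the 6 libraries in turn. Only FBXO38-DT among these 5 averaged 50 counts or more in both groups. The other 4 met the rule through their non-BCSC counts, so their falls are not independent of the choice. With the planned GC and length offsets 4 of these 5 lost their call, ZRANB2-DT at -0.85 (adjusted p = 0.0735 by edgeR), FBXO38-DT at -0.60 (0.0730), FAM174A-DT at -0.50 (0.370) and MAD2L1-DT at -1.11 (0.0789), and PCDH10-DT kept it. ZRANB2-DT (ENSG00000229956, chr1:71547007-71955659) was at 2.27, 1.83 and 3.75 CPM in BCSC and 11.6, 12.5 and 21.8 CPM in non-BCSC. That was a fall to 0.171 of the non-BCSC level (log2 fold change -2.54 ± 0.44, adjusted p = 0.0036 by edgeR). ZRANB2, a splicing factor whose start is 35 bases away, was at 150, 182 and 202 against 210, 223 and 207 CPM and did not pass the test.

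FBXO38-DT (ENSG00000247199, chr5:147467688-147763470) was the most abundant of the lower calls, at 7.14, 7.57 and 12.5 CPM in BCSC and 21.6, 31.3 and 38.6 CPM in non-BCSC. Its log2 fold change was -1.75 ± 0.32 (adjusted p = 0.0047 by edgeR). FBXO38, a ubiquitin ligase subunit, was at 96.4, 96.5 and 95.3 against 108, 95.4 and 96.4 CPM, a log2 fold change of -0.06. The 2 starts are 28 bases apart.

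PCDH10-DT (ENSG00000250241, chr4:133996466-134070302) showed the largest estimated fall, from 10.6, 10.2 and 19.5 CPM in non-BCSC to 0.493, 1.44 and 2.72 CPM in BCSC. The log2 fold change was -3.11 ± 0.62 (adjusted p = 0.0067 by edgeR). PCDH10, a protocadherin of cell adhesion, was itself low, at 4.09, 2.74 and 4.54 against 5.94, 8.57 and 13.8 CPM, with no overlap and a log2 fold change of -1.31 that missed the test (adjusted p = 0.0536).

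FAM174A-DT (ENSG00000247877, chr5:99763828-99870966) was at 0.936, 1.83 and 2.84 CPM in BCSC and 9.33, 7.16 and 17.9 CPM in non-BCSC (log2 fold change -2.62 ± 0.56, adjusted p = 0.0091 by edgeR). FAM174A had a log2 fold change of -0.52 (adjusted p = 0.194). MAD2L1-DT (ENSG00000250938, chr4:120988059-121485944) was at 1.43, 0.652 and 3.39 CPM in BCSC and 9.99, 9.54 and 13.8 CPM in non-BCSC (log2 fold change -2.60 ± 0.59, adjusted p = 0.0119 by edgeR). MAD2L1, the spindle checkpoint protein, was at 132, 159 and 178 against 141, 155 and 176 CPM, a log2 fold change of -0.01. In all 5 pairs the lncRNA's groups were apart, while those of MAD2L1 and FBXO38 overlapped.

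The other 6 lower calls were each lost when at least 1 library was left out. AHI1-DT, beside a ciliary gene, was at 0.887, 1.5 and 3.75 CPM in BCSC and 6.93, 10.9 and 31.3 CPM in non-BCSC (log2 fold change -3.0 ± 0.70, adjusted p = 0.0126 by edgeR). Without BCSC replicate 2 or non-BCSC replicate 3 its adjusted p was 0.05 and 0.0614. COPB2-DT was at 3.45, 4.57 and 5.08 against 9.49, 12.8 and 12.6 CPM (log2 fold change -1.41 ± 0.36, adjusted p = 0.0177). COPB2, a coatomer subunit of Golgi transport, had a log2 fold change of -0.67 (adjusted p = 0.0021), under the minimum fold. The COPB2-DT call was lost without BCSC replicate 1 or 2 or non-BCSC replicate 2 or 3, with adjusted p from 0.0519 to 0.0733.

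EPM2A-DT was at 1.58, 0.457 and 2.42 CPM in BCSC and 7.34, 7.51 and 9.78 CPM in non-BCSC (log2 fold change -2.46 ± 0.63, adjusted p = 0.0178 by edgeR). EPM2A, which encodes the glycogen phosphatase laforin, fell with it, from 16.6, 20.0 and 26.8 to 8.08, 4.11 and 7.5 CPM (log2 fold change -1.68, adjusted p = 0.0075), the only neighbour of a lower lncRNA to be called. Its start is far away, and 22.7% of the lncRNA's exon bases overlapped FBXO30 and SHPRH. The EPM2A-DT call was lost without the same 4 libraries as that of COPB2-DT, with adjusted p from 0.0506 to 0.0564.

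BTG1-DT, SEPTIN7-DT and MRPS30-DT completed the 11 and were named after their values were seen. BTG1-DT, beside an antiproliferative gene, was at 1.13, 0.652 and 3.02 CPM in BCSC and 7.01, 11.3 and 7.77 CPM in non-BCSC. SEPTIN7-DT, beside a cytoskeletal GTPase, was at 2.56, 3.52 and 3.14 against 6.11, 9.37 and 13.2 CPM, and MRPS30-DT, beside a mitochondrial ribosomal protein gene, at 2.56, 1.83 and 2.48 against 2.81, 7.95 and 16.1 CPM. Their calls held in 3, 2 and 1 of the 6 fits that left out a library.

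**Figure D3:**
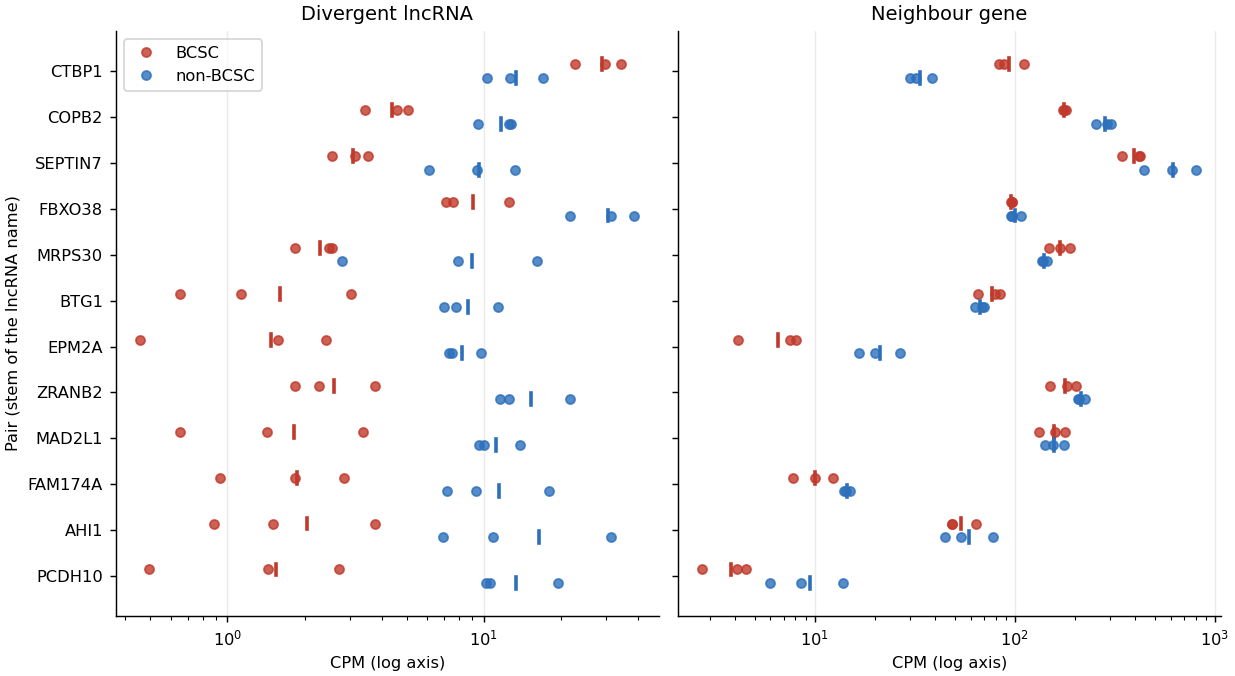
CPM (log axes) in each library for the 12 divergent lncRNAs called (left) and their neighbours (right), with BCSC in red, non-BCSC in blue and the group mean as a bar. The lncRNA groups are apart in every row, while neighbours such as MAD2L1, FBXO38 and AHI1 overlap.

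The 11 lower calls had means of 59.2 to 248 counts. Per kilobase, the 11 stood at 3.06 to 17.0 times the olfactory receptor level in the non-BCSC libraries. PTPRC stood at 8.45, 11.1 and 6.22 times and PGR at 3.34, 5.46 and 4.12 times that level in the same libraries, within the range of these lncRNAs, so the multiples do not set them apart from genes the line should not use. The median of all 75 was 4.76 times that level in non-BCSC and 43.3 times in BCSC, and 5 (FAM151B-DT, ZNF584-DT, ZNF132-DT, UBL7-DT and RNASEH1-DT) were under 2 times in non-BCSC. With the olfactory receptor level subtracted per kilobase from every gene, 9 of the 11 lower calls remained. SEPTIN7-DT (adjusted p = 0.102) and MRPS30-DT (0.0600) were lost, the median over the 75 was -0.47, and CTBP1-DT was at 1.20 (adjusted p = 0.0258).

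GC content moved with the fold changes as well. Over the 75, Spearman's rho between log2 fold change and transcript GC content was 0.52, and over all 20442 genes it was 0.55. These are values across genes that share the same 6 libraries. With offsets for GC content and length fitted on all genes past the filter, 8 of the 75 were called higher and 4 lower, all 4 (PCDH10-DT, AHI1-DT, EPM2A-DT and BTG1-DT) among the 11. The median of the 75 then turned positive, to 0.27, and that of genes averaging 50 counts or more moved from 0.22 to 0.67. Offsets fitted on genes averaging 50 counts or more only, a choice made after the first version was seen, kept 10 of the 11 and gave a median of -0.48, beside 0.09 for genes at that level. Under each of the 3 fits the median of the 75 lay below that of counted genes.

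Of the 74 neighbours tested, ZNF132 being too low, 6 were called higher (8.11%, against 8.85% of all genes tested and 14.99% of protein-coding genes averaging 50 counts or more) and 2 lower (2.70%, against 11.3% and 4.82%), with a median log2 fold change of 0.03. Besides CTBP1 the higher ones were FAM111A, a replication-associated protease (log2 fold change 1.04, adjusted p = 0.0006 by edgeR), MAP3K9, a kinase of the JNK pathway (1.35), ZNF496, a zinc finger gene (1.28), TMEM11, a mitochondrial membrane protein gene (1.22), and ARNT2, a basic helix-loop-helix factor (1.01). C2orf74 was lower (-1.07), as was EPM2A. The lncRNAs of these pairs did not pass the test except at CTBP1 and EPM2A. MAP3K9-DT, for example, was at 9.80, 6.52 and 7.26 CPM in BCSC and 4.62, 9.63 and 12.6 CPM in non-BCSC, while MAP3K9 went from 22.3, 13.5 and 15.7 to 48.4, 41.2 and 42.2 CPM. C2orf74-DT was at 8.23, 10.05 and 7.86 against 8.50, 7.07 and 8.82 CPM. With 1 library left out in turn, the TMEM11 call held in 2 of the 6 fits and the ARNT2 call in 3. With the GC and length offsets fitted on counted genes, FAM111A alone of the 6 higher calls kept its call. CTBP1 was then at 0.03, ZNF496 at 0.22, TMEM11 at 0.37, ARNT2 at 0.50 and MAP3K9 at 0.62. EPM2A kept its lower call there, and C2orf74, at -0.997, did not.

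CD44-DT, picked after its values were seen because CD44 marks breast cancer stem cells, was at 3.35, 4.11 and 3.14 CPM in BCSC and 2.15, 4.42 and 7.96 CPM in non-BCSC (log2 fold change -0.45, adjusted p = 0.586 by edgeR). CD44 was at 2802, 2645 and 2485 against 1640, 1478 and 1251 CPM (log2 fold change 0.86, adjusted p = 0.0011), apart between groups but under the minimum fold.

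Grouped by what the neighbour is known for, a grouping made after the values were seen, most lncRNA estimates were negative in all groups but that of chromosome structure and division. Over all 75 lncRNAs 59 estimates were negative and 14.7% were called lower, against 11.3% of all genes tested. Whether any of these small groups differs from the rest was not tested. All 9 beside genes of membrane traffic and the cytoskeleton had negative estimates, with 3 called lower (AHI1-DT, COPB2-DT and SEPTIN7-DT) and a median log2 fold change of -1.06, while those 9 neighbours had a median of 0.09 and no call. All 8 beside genes of the cell surface and transport were negative as well, with 1 called lower (PCDH10-DT). The 9 beside RNA processing and translation genes had a median of -0.92 with 2 called lower. METTL14-DT, beside the m6A methyltransferase subunit, was at 2.91, 2.94 and 0.484 against 3.14, 5.12 and 12.3 CPM and did not pass the test (adjusted p = 0.121 by edgeR). The 13 beside transcription and chromatin genes had a median of -0.01, with CTBP1-DT higher and BTG1-DT lower. The 12 beside mitochondrial and metabolic genes had a median of -0.24 with EPM2A-DT lower, and the 6 beside ubiquitin and protein quality control genes -0.68 with FBXO38-DT lower. The 4 beside signalling kinases and phosphatases were all negative too, with a median of -0.55 and no call.

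The 4 beside genes of chromosome structure and division spanned both directions. SMC2-DT, beside a condensin subunit, was at 0.739, 0.979 and 3.63 CPM in BCSC and 2.72, 6.71 and 14.0 CPM in non-BCSC (log2 fold change -2.13 ± 0.79, adjusted p = 0.0678 by edgeR). SMC5-DT, beside a subunit of the SMC5/6 complex, was at 6.99, 6.13 and 5.87 against 4.7, 1.5 and 2.69 CPM (log2 fold change 1.09 ± 0.54, adjusted p = 0.148). Neither passed the test, and the first overlapped between groups while the second did not.

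Partners were compared directly by testing whether the lncRNA to neighbour ratio changed. The lncRNA's change lay below the neighbour's in 57 of 74 pairs and above it in 17, with a median change of the ratio of -0.65 on the log2 scale. Over all 1361 lncRNA to coding pairs tested the median was -0.86. These pairs are on opposite strands with starts within 5000 bases in either direction, or are -DT genes with their stem gene. A lncRNA that starts inside its partner is therefore included. By edgeR's test of the ratio none of the 74 was called (smallest adjusted p = 0.0602), and 0.220% of the 1361 were. With p unadjusted (under 0.05) and the ratio changed over 2-fold, 13 of the 74 ratios were lower (17.6%, against 23.6% of all pairs) and 2 were higher (2.70%, against 2.94%).

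DESeq2 called 11 ratios lower (14.9%, against 23.1% of all pairs) and 1 higher (against 3.16%). MAD2L1-DT changed by -2.81 ± 0.68 relative to MAD2L1 and ZRANB2-DT by -2.28 ± 0.54 relative to ZRANB2 (adjusted p = 0.0007 and 0.0005 by DESeq2). Both lncRNAs met the rule on mean count through their non-BCSC counts, so these changes are not independent of the choice. FBXO38-DT, which met that rule in both groups, changed by -1.705 ± 0.523 relative to FBXO38 (adjusted p = 0.00795 by DESeq2). C2orf74-DT was the one higher, by 1.17 ± 0.38. By both tools the share of lower ratios among the divergent lncRNAs was below that of all head-to-head pairs, a difference that was not tested.

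Across the 74 pairs the 2 partners' log2 fold changes had a Spearman's rho of 0.37 and a Pearson's r of 0.39. Partners share libraries, and some share exon bases. Both were negative in 30 pairs and both positive in 11. The lncRNA was negative and the neighbour positive in 28, and the reverse held in 5. Of the 11 neighbours of a lower lncRNA, 9 were within a log2 fold change of 1 of no change.

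**Figure D4:**
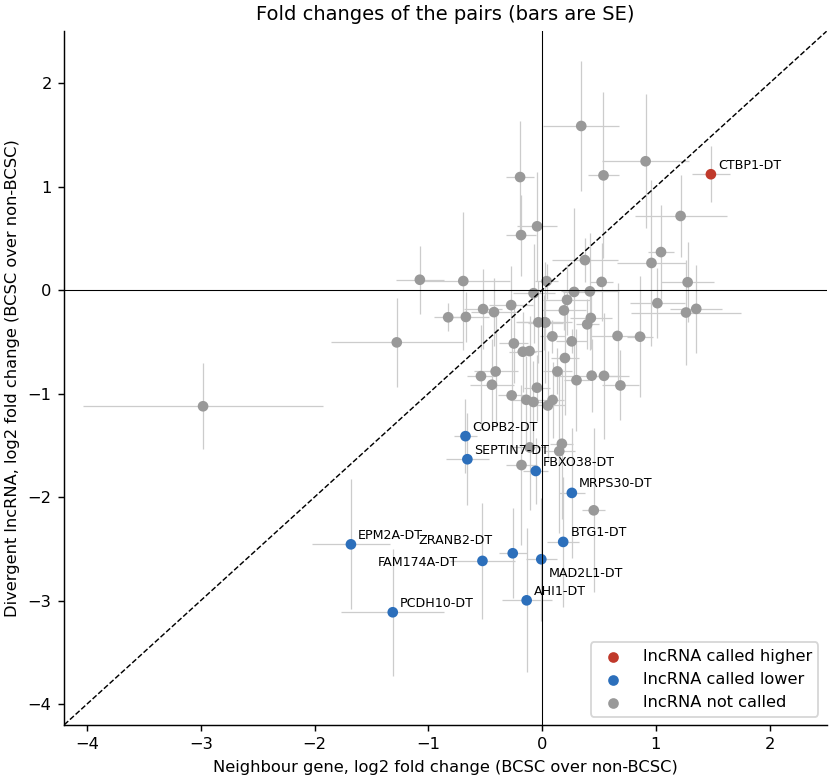
Log2 fold change (BCSC over non-BCSC) of each divergent lncRNA against that of its neighbour, 74 pairs, with SE bars, called lncRNAs coloured and named, and the line of equal change dashed. Of the points, 57 lie under the line and 17 above it, and CTBP1 is the single pair with both partners called higher.

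Other genes averaging 50 counts or more gave the following shares beside the 1.33% higher and 14.7% lower of the divergent lncRNAs. Of 986 other autosomal lncRNA genes, 6.09% were called higher and 23.2% lower. Among the 200 antisense (-AS) genes 20.5% were lower, and among the 148 LINC genes 39.2%. Of 10754 protein-coding genes 14.99% were higher and 4.82% lower. The medians were ordered otherwise than the shares called lower. The median log2 fold change was -0.50 for the divergent lncRNAs, -0.22 for the 986 others, -0.39 for the -AS genes, -0.92 for the LINC genes and 0.26 for the protein-coding genes. These classes differ in level and GC content, and the difference between them was not tested.

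**Figure D5:**
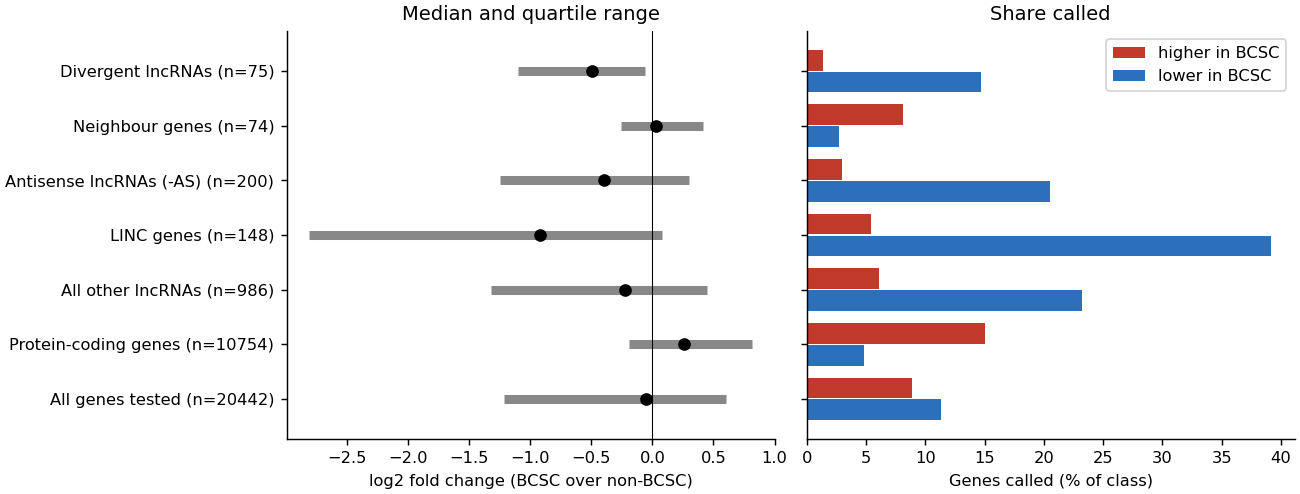
Left, median (point) and quartile range (bar) of the log2 fold change in each class of genes, all with a mean of 50 counts or more except the neighbours and the row of all genes tested. Right, the percentage of each class called higher (red) and lower (blue) in BCSC. The divergent lncRNAs lie at -0.50 with 14.7% lower, between protein-coding genes (0.26, 4.82%) and LINC genes (-0.92, 39.2%).

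Of 56 genes of the machinery that ends, cleaves and degrades upstream transcripts, 7 were called higher (12.5%, between the 8.85% of all genes tested and the 14.99% of counted protein-coding genes) and none lower by edgeR, with none lower over 2-fold when p was left unadjusted (under 0.05) and none by DESeq2. Of the 7, 3 belong to Integrator, the complex that cleaves nascent RNA: INTS1 (log2 fold change 1.27 ± 0.34, adjusted p = 0.0207 by edgeR), INTS3 (1.06 ± 0.16) and INTS11 (1.21 ± 0.26), its endonuclease. INTS3 was at 83.9, 66.4 and 68.0 CPM in BCSC and 36.4, 38.3 and 30.1 CPM in non-BCSC. CPSF1 (1.48 ± 0.37) and CPSF4 (1.39 ± 0.34) belong to the cleavage and polyadenylation factor, SNRPA (1.04 ± 0.20) to U1 snRNP and EXOSC6 (1.09 ± 0.13) to the nuclear exosome. EXOSC6, the firmest of them, was at 89.5, 104 and 95.9 against 42.7, 48.3 and 45.2 CPM (adjusted p = 0.0008). The groups of all 7 were apart. EXOSC6 was the only one of 13 nuclear exosome genes called, and none of 7 genes of its targeting complexes, 4 cap-binding genes or the 2 restrictor genes was called either way. With the GC and length offsets INTS1 (-0.42) and INTS11 (-0.17) turned negative, and CPSF1 did under 1 of the 2 versions (-0.12). The version fitted on counted genes left 1 higher and 1 lower call, while the planned version gave more higher calls than the fit reported, as listed further on. In the fit reported, with no minimum fold, 11 were higher and 3 lower.

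The threshold of 50 counts lay in a dense part of the range. Just inside it stood RNASEH1-DT, with a mean of 51.5 counts, at 3.94, 6.0 and 3.93 CPM in BCSC and 0.495, 4.68 and 1.25 CPM in non-BCSC, and UBL7-DT, with 52.3 counts, at 4.83, 4.63 and 4.78 against 0.743, 2.30 and 2.97 CPM. Just outside stood NUP50-DT, with 49.5 counts, at 3.99, 3.46 and 5.32 against 0.990, 2.03 and 3.84 CPM, and PPP1R3B-DT, with 49 counts, at 0.936, 0.652 and 2.84 against 2.72, 8.13 and 8.92 CPM.

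At the level of single transcripts, as the counts were deposited, 524 of 924 transcripts of the 75 genes had counts and 206 were tested. None was called by edgeR, against 0.784% of 45898 transcripts either way. With p unadjusted (under 0.05) and over 2-fold, 22 were lower (10.7%, against 7.99% of all transcripts tested) and 8 higher (3.88%, against 7.85%).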

How the data were processed

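Total RNA of 3 BCSC and 3 non-BCSC libraries of MDA-MB-231 was sequenced by the authors, who deposited estimated counts per transcript. The study's methods name HISAT2 on hg19, while the submitters' processing notes name HISAT2, featureCounts, DESeq2 and hg38, and the annotation release is not given in the sources used here. Of 252618 transcripts, 98.8% matched GENCODE on GRCh37, which gave genes, coordinates and sequences, and 0.229% to 0.341% of counts stayed unmatched. Counts were summed per gene. Genes past edgeR's filterByExpr were fitted with TMM factors and the robust quasi-likelihood test (edgeR 4.0.16, R 4.3.3), with group as the only term and Benjamini-Hochberg adjustment over all 20442 genes. A call needed a change of over 2-fold besides an adjusted p under 0.05, after the study's thresholds. Errors are SD for levels and SE for fold changes. For ratios, the 6 counts of the lncRNA and the 6 of its neighbour were fitted as 1 row with library as a term and a partner by group interaction, over every lncRNA and protein-coding gene on opposite strands with starts within 5000 bases and, for -DT genes, the gene in the stem. The scripts were tested on simulated data. DESeq2 1.42.0 and limma 3.58.1 were alternatives. Totals were 9898588 to 21215352 counts, and the lowest count of any of the 75 in a library was 6. Replicates differed by more than counting noise.

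The genes and lists were chosen with earlier results of these data known. Named were the called lncRNAs (up to 8 a direction by p), the 6 most abundant, those at the threshold, each with its neighbour, and called processing genes. Others were named after their values were seen.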

Additional observations from a re-analysis of the deposited data

How the results depend on the processing

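Counts of calls are given as higher and lower in BCSC. The divergent lncRNAs, at 1 and 11 in the fit reported, came to 1 and 19 by DESeq2, 0 and 18 when each library had to hold 10 counts, 2 and 17 at an unadjusted p, and 0 and 0 as single transcripts. Those averaging over 200 counts gave 1 lower. Leaving out 1 library gave 0 to 1 higher and 5 to 15 lower, the fewest without BCSC replicate 2 (5), and 6 without BCSC replicate 1 or non-BCSC replicate 2 or 3. The neighbours, at 6 and 2, came to 3 higher with RLE size factors or background removed, to 4 lower by DESeq2, under that 10-count rule, or at an unadjusted p, and to 14 and 8 with no minimum fold, and leaving out 1 library gave 3 to 7 higher (3 without BCSC replicate 2) and 2 to 3 lower. Ratios, at 0 and 0, came to 1 and 11 by DESeq2, 2 and 13 under the 10-count rule, 0 and 3 after thinning all libraries to the smallest, and 2 and 13 at an unadjusted p. Limma on log ratios, added after the data were seen, gave 1 and 14. The processing genes, at 7 and 0, came to 4 higher with RLE factors, 11 and 3 with no minimum fold, and 2 to 10 higher without 1 library (2 without BCSC replicate 1, 4 without non-BCSC replicate 2 or 3). All genes, at 1810 and 2307, came to 3512 lower by DESeq2, 1177 lower under the 10-count rule, 1081 lower with background removed, 3527 lower at an unadjusted p and 3125 higher with no minimum fold, with 959 to 2230 higher and 1103 to 3004 lower without 1 library. The lowest were 959 without BCSC replicate 1 and 1103 without non-BCSC replicate 3.

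Offsets for GC content and length moved most results. Fitted on all genes past the filter, as planned, they gave 8 and 4 divergent lncRNAs, 41 and 1 neighbours, 23 higher processing genes and 4314 higher genes. The sign turned in 32 of the 75 lncRNAs and 32 of the 74 neighbours. Genes turned included TMEM161B-DT (0.90), SLC12A2-DT (0.61), UBA6-DT (0.81), GARS1-DT (0.26), RAB30-DT (1.05), SLC12A2 (0.52), COPB2 (0.29), SEPTIN7 (0.97), CPSF1 (-0.12), INTS11 (-0.17), INTS1 (-0.42), CTBP1 (-0.082), ZRANB2 (1.85), FBXO38 (1.39), MAD2L1 (1.74) and AHI1 (1.44). The offsets also moved the median of counted genes by more than any other setting, from 0.22 to 0.67. These values include that shift, though single genes moved in either direction. A second version fitted on genes averaging 50 counts or more was added because of that result. It gave 0 higher divergent lncRNAs, 3 higher neighbours, 1 and 1 processing genes and 611 higher genes, and turned INTS11 (-0.062) and INTS1 (-0.29). Which version removes more of a technical effect was not tested.

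The groups share replicate numbers. Deviations of same-numbered libraries correlated at 0.222, 0.0302 and 0.248. Replicates 1 and 3 of BCSC matched their own number in non-BCSC best, while replicate 2 of BCSC matched replicate 1 of non-BCSC best. The numbers were not taken to pair the libraries in the fit reported. With the replicate block, 1 divergent lncRNA was higher and 13 were lower, 4 neighbours were lower and no ratio was called.

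Low counts limit the lncRNA values too, with 42 of 75 at a mean under 100 counts.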

Other observations

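The 505 -DT genes under a mean of 50 counts were mostly too low to test. Of them, 74 had no count in any library and 173 passed the filter, which gave 1 higher and 7 lower calls in BCSC by edgeR and a median log2 fold change of -0.89. Among the 75 counted ones, of 13 with a mean of 200 counts or more, 1 was higher (CTBP1-DT) and 1 lower (FBXO38-DT). Of 20 with 100 to 200 counts, 3 were lower, and of 42 under 100 counts, 7 were lower.

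Isoform use was steady in some divergent lncRNAs and not in others. RAB30-DT-213, an unspliced transcript of 1487 bases, was assigned 31.7%, 31.3% and 11.7% of RAB30-DT in BCSC and 60.9%, 6.10% and 45.9% in non-BCSC. AHI1-DT-203, of 5 exons, had no counts in BCSC and 0%, 30.1% and 22.4% of AHI1-DT in non-BCSC. How the estimates divide reads among overlapping isoforms was not examined.

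Over all 1361 lncRNA to coding pairs, the 3 ratios called by edgeR were SNX10-AS1 to SNX10, by -4.48 ± 0.57 (SE) on the log2 scale (adjusted p = 0.0395), and 2 lncRNAs at PROX1, which encodes a homeobox factor.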
